A study of Mus musculus with 16 samples.

Results

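The genes described here are 8 markers of adipocytes, the cells that store fat: Adipoq, Cfd, Retn, Lep, Pparg, Fabp4, Lpl and Slc7a10. They were followed over all arrays of a study of mouse ovaries, to ask whether they moved together. A probe was taken as a member when its gene name in the scanner files, or the current symbol of its accession, was one of the 8 names. This gave 12 probes of 41174 and 8 genes of the 24372 genes and unnamed transcripts tested. The genes were picked with results of these arrays known, so their levels, differences and correlations are given as a description and without p-values.

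Total RNA from whole ovaries of mice 1 year old was labelled with Cy3 and hybridised to 16 one-colour Agilent whole mouse genome arrays, 4 in each of 4 groups. The groups were Ex3aERKO (estrogen receptor α, ERα, knocked out), Ex3bERKO (ERβ knocked out), Ex3abERKO (both knocked out) and control, whose ovaries carried one allele of each receptor. Neither strain nor any Cre driver is given in the labels, and they do not tell if each of the 4 samples had an animal of its own, so the spread between arrays may be technical in part. An array is called by its group with its replicate number after it (Ex3aERKO 2). Levels are log2 signal relative to the 75th percentile of the array, and a level compares arrays for 1 probe, not 1 probe with another.

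Adipocytes release hormones such as adiponectin, leptin and, in mice, resistin, and they take up fatty acids that lipoprotein lipase frees from circulating lipoproteins. The nuclear receptor PPARγ, paired with an RXR, switches on much of this programme. Several of the genes are not confined to fat: Fabp4 and Lpl are also made by macrophages, Fabp4 by endothelial cells of small vessels, and Pparg by granulosa cells and macrophages. The ovary lies in a fat pad, the periovarian fat, so white adipocytes are a possible companion of any dissected ovary.

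Of the members, Fabp4 had 3 probes, Lpl and Retn had 2 each and the others had 1. The probes of Adipoq and Retn, 2 of the genes that varied most, are printed as the array files give them (mm7), to show what was measured and how far the Retn probes overlap. The Adipoq probe lies on chromosome 16, 22816125 to 22816184, plus strand. The Retn probes lie on chromosome 8, plus strand, at 3618519 to 3619340 and at 3618557 to 3619378, spans far longer than a probe of 60 bases, and they share the 22 bases in capitals.
Adipoq: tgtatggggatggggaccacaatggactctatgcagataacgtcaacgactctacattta
Retn, brighter probe: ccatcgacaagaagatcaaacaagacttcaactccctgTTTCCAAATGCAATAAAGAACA
Retn, dimmer probe: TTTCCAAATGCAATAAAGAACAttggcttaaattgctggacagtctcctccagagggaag
The probes of a gene ran together. Over the 16 arrays the dimmer Retn probe correlated with the brighter one at r = 0.97, both other Fabp4 probes with the brightest at 1.00 and 0.99, and the dimmer Lpl probe with the brighter at 0.88. The Cfd probe lies on chromosome 10, 79672573 to 79672632, and the Slc7a10 probe on chromosome 7, 32090563 to 32090622, both on the plus strand. All probes were well above background on all 16 arrays except that of Slc7a10. It was well above background on 1 of 4 Ex3aERKO, 3 of 4 Ex3bERKO, 4 of 4 Ex3abERKO and 4 of 4 control arrays.

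The 75th percentile of signal lay between 1211 and 1806 and differed by group. It was 1650 to 1749 over the Ex3aERKO arrays, 1621 to 1806 over Ex3bERKO, 1211 to 1555 over Ex3abERKO and 1307 to 1753 over control. Esr1, which encodes ERα, averaged -2.48 in Ex3aERKO and -1.73 in Ex3abERKO, against -0.10 in control. Esr2, which encodes ERβ, averaged 0.33 in Ex3bERKO and -2.07 in Ex3abERKO, against -0.10 in control, and whether its probe lies in the deleted part was not checked here. Summed over marker lists, liver genes reached 165 in Ex3aERKO 2 (12 at the median of its group), oviduct genes 58.1 in Ex3abERKO 2 (1.56) and erythroid genes 133 in control 4 (12.8), all on the linear scale of signal over the 75th percentile. These 3 arrays stood apart, and each count of genes against control that changed without them is also given without them, apart from the lists of liver, oviduct, erythroid, muscle and neural markers.

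Adipoq encodes adiponectin, a hormone made almost solely by adipocytes. Replicates 1 to 4 read -5.93, -3.30, -2.90 and -6.03 in Ex3aERKO, 0.37, -1.43, -4.19 and -2.09 in Ex3bERKO, 1.10, 0.18, -1.03 and 1.26 in Ex3abERKO, and 1.19, -0.03, -0.26 and -2.37 in control. Every Ex3aERKO array was below every control and every Ex3abERKO array, while Ex3bERKO spread over most of that range. The difference from control was -4.17 ± 1.00 (SE) in Ex3aERKO, an 18-fold lower level, with -1.47 ± 1.00 in Ex3bERKO and 0.75 ± 1.00 in Ex3abERKO. In whole ovaries, fewer adipocytes and less RNA per adipocyte cannot be told apart.

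Cfd encodes complement factor D, also called adipsin, a serine protease that fat secretes. Its levels were -6.02, -1.35, -2.19 and -3.38 in Ex3aERKO, 3.14, 0.92, -2.47 and 0.02 in Ex3bERKO, 3.21, 1.71, 1.28 and 3.31 in Ex3abERKO, and 1.88, 1.46, 1.90 and 0.48 in control. The Ex3aERKO arrays were again all below the control arrays, and Ex3bERKO 3 was the only array of its group within the Ex3aERKO range. Cfd differed from control by -4.67 ± 1.07 in Ex3aERKO, a 25.4-fold lower level, by -1.03 ± 1.07 in Ex3bERKO and by 0.95 ± 1.07 in Ex3abERKO. Leaving out 1 array at a time put the Ex3bERKO difference between -1.94 and -0.07, the latter without Ex3bERKO 3.

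Retn encodes resistin, a hormone that in mice comes from white fat. Its brighter probe read -4.97, -4.59, -4.58 and -4.65 in Ex3aERKO, -0.69, -2.89, -4.42 and -3.01 in Ex3bERKO, -1.43, -2.08, -2.57 and -1.30 in Ex3abERKO, and -1.62, -1.48, -1.83 and -3.92 in control. Ex3aERKO was lowest and tight (-4.70 ± 0.19, SD), while control 4 lay 2.09 below its nearest neighbour. The difference from control was -2.49 ± 0.66 in Ex3aERKO (5.60-fold lower; -2.02 and not called under another background correction, normexp), -0.54 ± 0.66 in Ex3bERKO and 0.37 ± 0.66 in Ex3abERKO. With the dimmer probe the Ex3aERKO difference was -3.11.

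Slc7a10 encodes Asc-1, a transporter of small neutral amino acids known from brain and as a surface protein of white adipocytes. Its levels were -8.34, -8.61, -6.38 and -8.86 in Ex3aERKO, -3.94, -4.64, -7.98 and -5.44 in Ex3bERKO, -2.59, -3.37, -5.19 and -2.46 in Ex3abERKO, and -2.80, -4.19, -3.81 and -5.36 in control. As with Adipoq, the Ex3aERKO arrays lay below all control arrays, and Ex3bERKO 3 lay among them. The difference was -4.00 ± 0.86 in Ex3aERKO (16-fold lower), -1.46 ± 0.86 in Ex3bERKO and 0.64 ± 0.86 in Ex3abERKO. With most Ex3aERKO arrays not well above background, the size of the Ex3aERKO difference rests on dim spots, and it was -1.71 and not called under normexp.

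Lep encodes leptin, the hormone that reports fat stores to the brain. Its levels were -4.98, -5.70, -5.15 and -5.11 in Ex3aERKO, -4.84, -4.95, -4.79 and -4.82 in Ex3bERKO, -3.05, -4.11, -6.10 and -2.59 in Ex3abERKO, and -2.81, -3.67, -4.97 and -5.68 in control. The Ex3aERKO and Ex3bERKO arrays were all low and close together, whereas Ex3abERKO and control each held high and low arrays. The groups overlapped with control in each case, with differences of -0.95 ± 0.67 in Ex3aERKO, -0.57 ± 0.67 in Ex3bERKO and 0.32 ± 0.67 in Ex3abERKO.

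**Figure D1:**
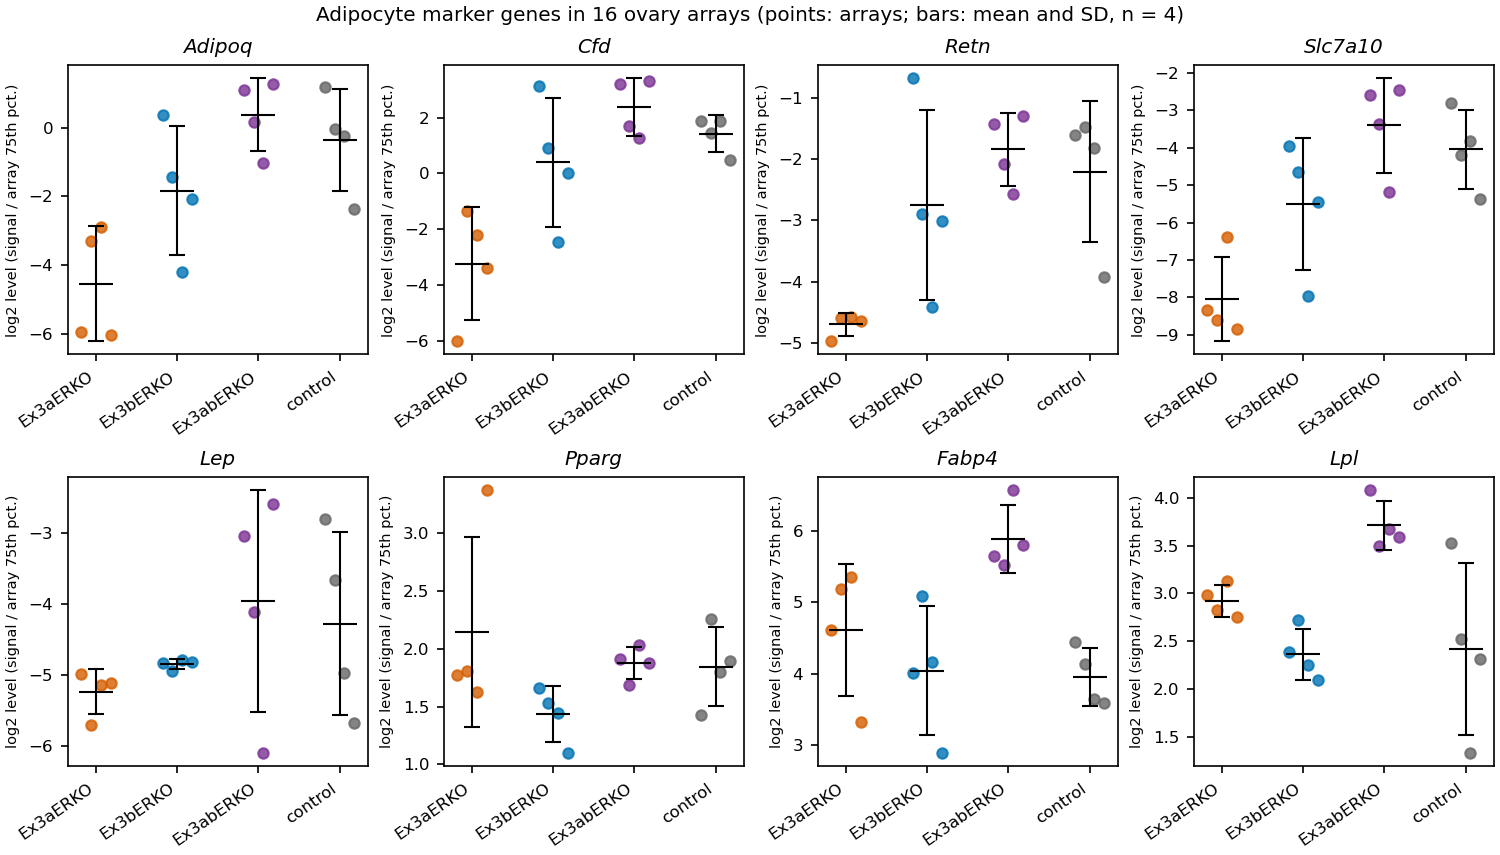
Level of each of the 8 genes (log2 signal relative to the array's 75th percentile) on every array, by group, with the mean and SD of the 4 arrays. Adipoq, Cfd, Retn and Slc7a10 were lowest in Ex3aERKO with no overlap with control, and Fabp4 and Lpl were highest in Ex3abERKO.

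The other 3 members followed other patterns. Fabp4, a carrier of fatty acids inside adipocytes and macrophages, read 4.61, 5.20, 5.35 and 3.32 in Ex3aERKO, 4.01, 5.09, 4.17 and 2.89 in Ex3bERKO, 5.66, 5.52, 6.58 and 5.81 in Ex3abERKO, and 4.44, 4.13, 3.65 and 3.59 in control. All Ex3abERKO arrays were above all arrays of the other groups, and those 3 groups overlapped one another. Fabp4 was 3.84-fold higher in Ex3abERKO than in control (1.94 ± 0.47), with 0.67 ± 0.47 in Ex3aERKO and 0.09 ± 0.47 in Ex3bERKO. Its dimmest probe, on chromosome 3, 10216627 to 10216686 (minus strand), gave 2.37 for Ex3abERKO.

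Lpl encodes lipoprotein lipase. It read 2.98, 2.83, 3.13 and 2.75 in Ex3aERKO, 2.39, 2.72, 2.25 and 2.09 in Ex3bERKO, 4.08, 3.50, 3.68 and 3.59 in Ex3abERKO, and 3.52, 2.52, 1.33 and 2.31 in control. Ex3abERKO was above all other arrays but control 1, which lay just above its lowest value. The difference from control was 1.29 ± 0.33 in Ex3abERKO (2.45-fold higher), 0.50 ± 0.33 in Ex3aERKO and -0.06 ± 0.33 in Ex3bERKO. Pparg, the master regulator of adipocyte formation, read 1.77, 1.81, 1.63 and 3.37 in Ex3aERKO, 1.66, 1.53, 1.45 and 1.10 in Ex3bERKO, 1.91, 1.69, 2.03 and 1.88 in Ex3abERKO, and 1.42, 2.26, 1.80 and 1.90 in control. Ex3aERKO 4, where Adipoq was lowest, was the array with most Pparg. Its differences from control were 0.30 ± 0.32 in Ex3aERKO, -0.41 ± 0.32 in Ex3bERKO and 0.03 ± 0.32 in Ex3abERKO, with overlapping groups in each case.

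By mean level, Adipoq, Cfd, Retn, Lep and Slc7a10 were ordered Ex3abERKO, control, Ex3bERKO and Ex3aERKO from high to low. In all 5 the first 3 of these groups overlapped with their neighbour. Ex3bERKO and Ex3aERKO did not overlap for Retn and Lep, and overlapped for Adipoq, Cfd and Slc7a10. Fabp4 was ordered Ex3abERKO, Ex3aERKO, Ex3bERKO and control, and Lpl was ordered Ex3abERKO, Ex3aERKO, control and Ex3bERKO. For both, Ex3abERKO and Ex3aERKO did not overlap and the other neighbours did. Pparg was ordered Ex3aERKO, Ex3abERKO, control and Ex3bERKO, and all neighbours overlapped.

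A limma model over all 16 arrays called a gene at an adjusted p under 0.05, after Benjamini-Hochberg adjustment over the 24372 features of a comparison. It called 4 members lower in Ex3aERKO than in control, Adipoq, Cfd, Retn and Slc7a10, and none higher (under normexp Adipoq and Cfd, and without the 3 arrays that stood apart Adipoq, Cfd and Retn), where 4.20% of all features were called lower and 8.05% in either direction. The same 4 had groups that did not overlap, as did 9.49% of all features in that direction. No member was called in Ex3bERKO against control (1.04% of features, 0.648% lower), where the members' differences ran from -1.47 to 0.09. Fabp4 and Lpl were called higher in Ex3abERKO than in control (10.6% of features). Against Ex3aERKO, Ex3abERKO had 4 members called higher, again Adipoq, Cfd, Retn and Slc7a10 (4.41% of features), by 4.92, 5.62, 2.85 and 4.64. Under normexp Adipoq and Cfd were called there, and Retn (2.10) and Slc7a10 (1.82) were not. Against Ex3bERKO, Ex3abERKO had Fabp4 and Lpl called higher (8.23%). No member was called between Ex3aERKO and Ex3bERKO (2.35%), where the members' differences ran from -3.64 to 0.71. Groups did not overlap for 1 member in Ex3abERKO against control, Fabp4 (11.6% of features higher without overlap), and for 6 members in Ex3abERKO against Ex3aERKO, all but Lep and Pparg (7.82%). They did not overlap for Pparg, Fabp4 and Lpl in Ex3abERKO against Ex3bERKO (9.16%), nor in Ex3aERKO against Ex3bERKO for Retn and Lep, which were lower (5.27%), and Lpl, which was higher (3.14%). In Ex3bERKO against control all 8 overlapped (7.99% of features did not). These comparisons share arrays, and since the members were chosen on such results the shares are background only.

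The interaction, which takes the difference of Ex3bERKO from control away from that of Ex3abERKO from Ex3aERKO, asks whether ERβ loss shifted a gene differently with and without ERα. It was called for Adipoq (6.39 ± 1.42), Cfd (6.64 ± 1.52) and Slc7a10 (6.10 ± 1.22), all positive, where 1.83% of features were called positive and 1.74% negative. The Slc7a10 value rests on Ex3aERKO spots of which 1 of 4 was well above background, and under normexp it was 2.90 and not called, while Adipoq and Cfd were. For Adipoq this means 4.92 between Ex3abERKO and Ex3aERKO, but -1.47 between Ex3bERKO and control. Retn (3.39 ± 0.93), Lep (1.84 ± 0.94), Fabp4 (1.19 ± 0.67), Lpl (0.85 ± 0.47) and Pparg (0.14 ± 0.45) were not called. The median over the 8 genes was -1.72 in Ex3aERKO, -0.56 in Ex3bERKO and 0.69 in Ex3abERKO against control, and 2.62 for the interaction. Over all features the medians were -0.08, 0.01, -0.11 and 0.00. Without control 4 the median of the 8 genes was -1.07 in Ex3bERKO and 0.14 in Ex3abERKO.

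**Figure D2:**
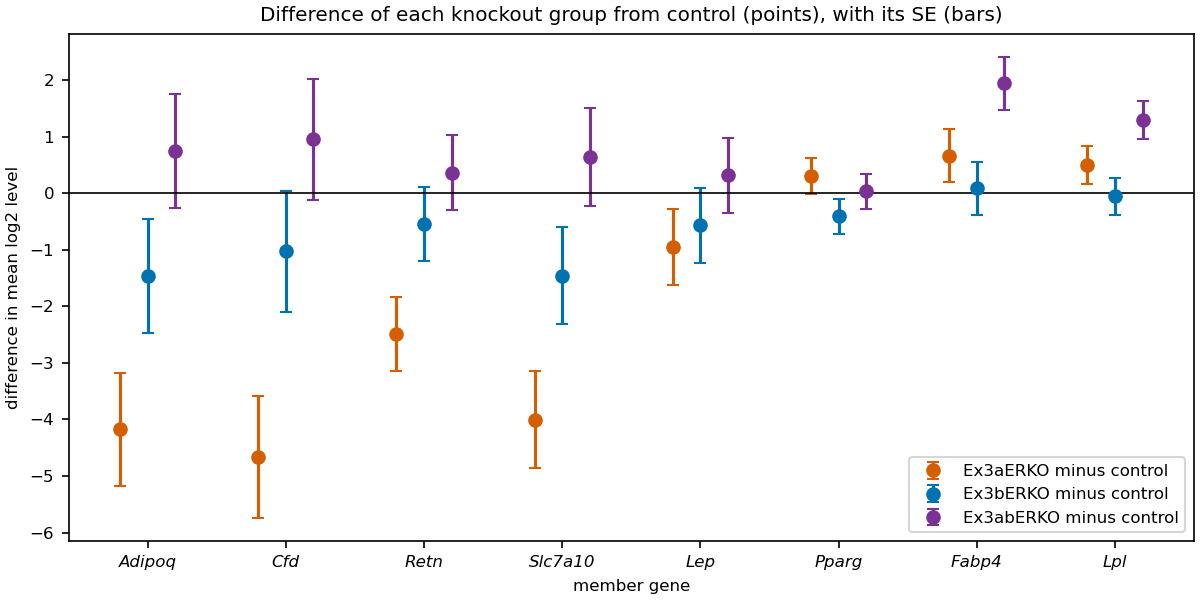
Difference in mean log2 level between each knockout group and control for the 8 genes, with the SE of the model. Adipoq, Cfd and Slc7a10 lie near -4 in Ex3aERKO while Fabp4 and Lpl lie above 0 there, and in Ex3abERKO all 8 points are above 0.

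Single arrays mattered for these counts. The 4 members called in Ex3aERKO against control became 2, Cfd and Slc7a10, without Ex3aERKO 1, without control 1 or without control 3. The 3 called in the interaction became 1, Slc7a10, without control 1, without Ex3abERKO 1 or with slide as a fixed block, and 1, Adipoq, without the 3 arrays that stood apart. Leaving those 3 out also left 1 member called in Ex3abERKO against control, Fabp4. Without Ex3bERKO 4 only Lpl was called in Ex3abERKO against Ex3bERKO, and without Ex3bERKO 3 Cfd and Slc7a10 were called between Ex3aERKO and Ex3bERKO. The arrays lay on 4 slides. Deviations from the group means correlated over all features at a median r of 0.28 between arrays of different groups on 1 slide and -0.07 between arrays on different slides. Slide is not in the model, and with it as a fixed block the same 4 genes were called in Ex3aERKO against control and the same 2 in Ex3abERKO against control. Within them Adipoq differed between Ex3aERKO and control by -4.49, -0.53, -5.90 and -5.78 on slides 1 to 4. Cfd differed by -3.23, -2.67, -7.48 and -5.28, Retn by -2.97, -0.66, -3.49 and -2.82, and Slc7a10 by -5.80, -1.01, -4.15 and -5.04. All 16 values were negative, but these 4 genes were the ones called in this comparison and they move together. The signs are therefore no separate support. For these 4 genes the smallest stood on slide 2, which held control 4 and Ex3aERKO 3. For Ex3bERKO against control on slides 1, 3 and 4, Adipoq differed by -2.62, -0.83 and -3.94, and Cfd by -0.96, 0.12 and -4.37. For Ex3abERKO against control on slides 1, 2 and 4, Fabp4 differed by 2.13, 2.01 and 2.16, whereas Adipoq differed by -2.22, 3.01 and 1.52, so that its direction was not the same on each slide.

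Adipoq, Cfd, Retn and Slc7a10 moved together from array to array. Over the 16 arrays their 6 pairs had r between 0.91 and 0.96. Deviations from the group means, which leave out the differences between groups, still gave 0.71 to 0.88. Within Ex3aERKO, however, Retn stayed between -4.97 and -4.58 while Adipoq ran from -6.03 to -2.90. The Slc7a10 probe was well above background on 12 of the 16 arrays, so its r rests in part on dim spots. For Adipoq with Slc7a10, r was 0.96 and Spearman's rho 0.97 for levels, 0.95 without the 2 arrays farthest from the median of Adipoq, and 0.88 for deviations. With slide fitted as well as group, r of the deviations was 0.89 for Slc7a10, 0.88 for Cfd and 0.92 for Retn with Adipoq. These arrays share slides and a common scaling, and the values are descriptive.

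**Figure D3:**
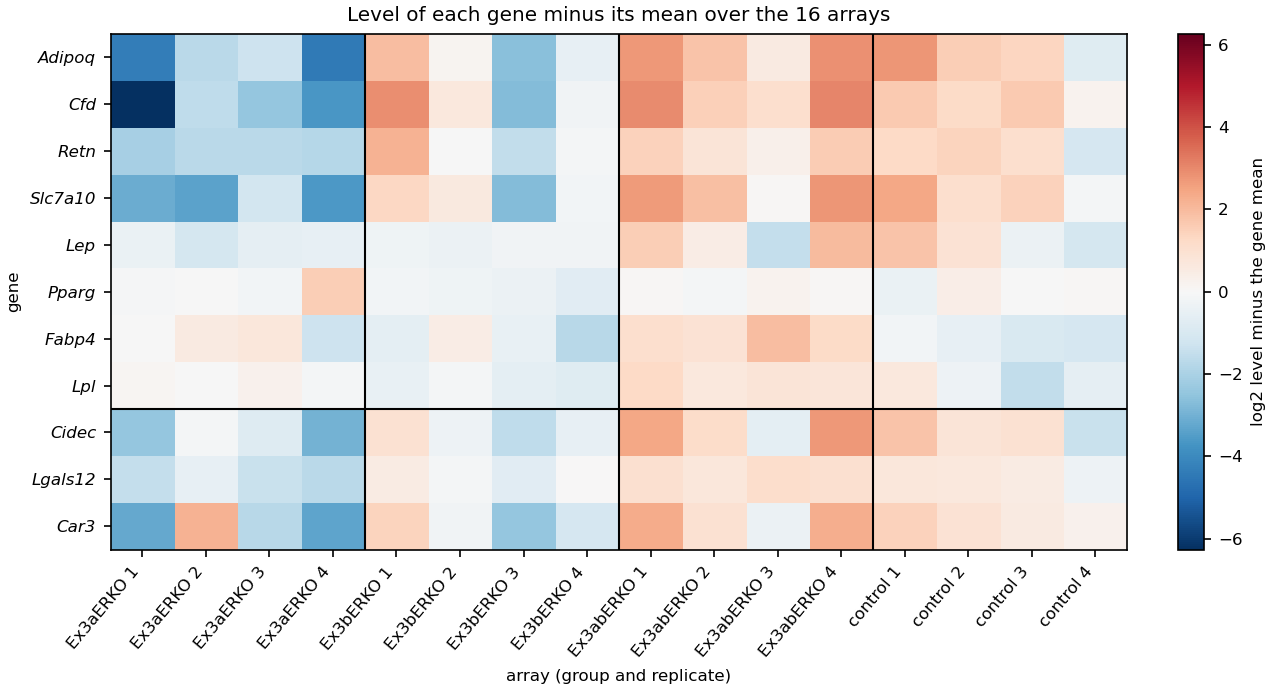
Level of each gene minus its mean over the 16 arrays (log2, colour), with arrays in columns by group and replicate. The 4 upper genes broadly share their high and low arrays with Cidec and Lgals12, and Fabp4, Lpl and Pparg do not.

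The other 4 members stood apart from that set to different degrees. Lep correlated with Adipoq, Cfd, Retn and Slc7a10 at r from 0.48 to 0.66 for levels and from 0.22 to 0.57 for deviations. On Ex3bERKO 1, the highest array of its group for Adipoq, Cfd and Retn, Lep read -4.84, close to the other Ex3bERKO arrays. Fabp4 correlated with those 4 genes at 0.16 to 0.33 and Lpl at 0.16 to 0.29. Pparg correlated with them at -0.32 to -0.16, although with Adipoq r was 0.29 without the 2 arrays farthest from the median of Adipoq, so the sign rests on those arrays. Fabp4 and Lpl correlated with each other at r = 0.78 (rho = 0.84) for levels, 0.45 for deviations and 0.14 with slide fitted. Over all 28 pairs of members the median r was 0.28 for levels and 0.27 for deviations.

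**Figure D4:**
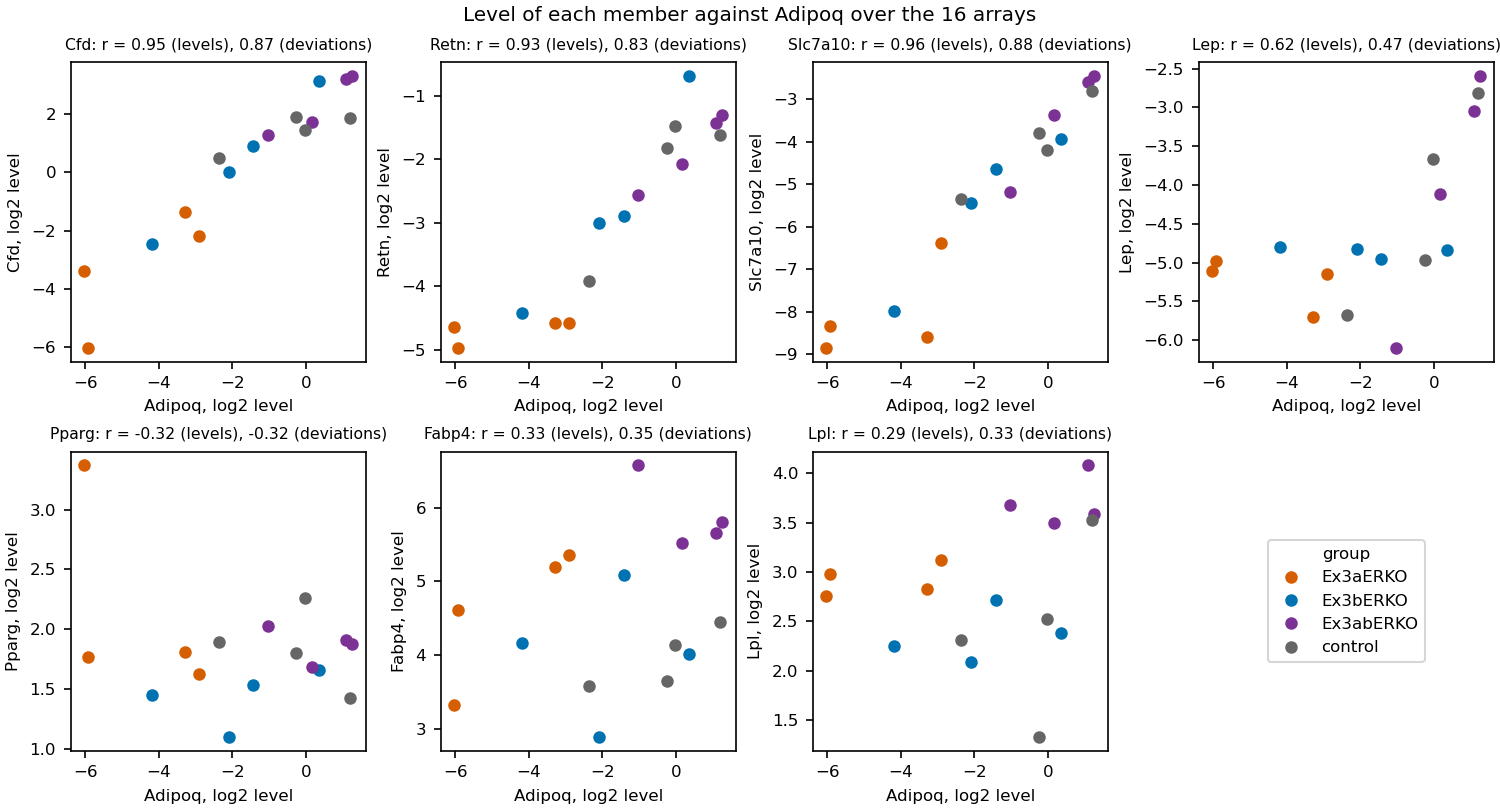
Level of each of the other 7 members against that of Adipoq (both log2), 1 point per array, coloured by group, with r for levels and for deviations from the group means. Cfd, Retn and Slc7a10 rise with Adipoq over the arrays, though Retn hardly varies within Ex3aERKO. Fabp4, Lpl and Pparg follow Adipoq weakly or not at all.

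Within groups the set shared many, but not all, of its highest and lowest arrays. In Ex3abERKO, replicate 3 was lowest for Adipoq, Cfd, Retn, Slc7a10 and Lep, yet highest for Fabp4. In Ex3bERKO, replicate 1 was highest and replicate 3 lowest for Adipoq, Cfd, Retn and Slc7a10, while Fabp4 was highest in replicate 2 and lowest in replicate 4. In control, replicate 4 was lowest for Adipoq, Cfd, Retn, Slc7a10, Lep and Fabp4. The highest control array differed, being replicate 1 for Adipoq and Slc7a10, 3 for Cfd and 2 for Retn. In Ex3aERKO, replicate 3 was highest for Adipoq, Retn and Slc7a10 and replicate 2 was highest for Cfd. There replicate 4 was lowest for Adipoq and Slc7a10, and replicate 1 for Cfd and Retn.

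Among all features the genes most like Adipoq in level over the 16 arrays, leaving out unnamed probes, were Slc7a10 (r = 0.96), Cfd (0.95), Cidec (0.94), Retn (0.93) and Lgals12 (0.92). The 99th percentile of r with Adipoq over the 24371 other features was 0.64. Cidec coats the lipid droplet and Lgals12 encodes galectin-12, a lipid droplet protein of adipocytes. For deviations from the group means the order was Cidec (0.93), Slc7a10 (0.88), Cfd (0.87), Sh3tc1 (0.85) and Retn (0.83), with a 99th percentile of 0.55. Not all adipocyte genes were like Adipoq. Its r with Plin1 was 0.21 for levels and 0.67 for deviations, and with Lipe 0.06 and 0.03. With Car3 it was 0.85 and 0.78. The genes most like Slc7a10 in level were Adipoq (0.96), Retn (0.91), Cfd (0.91), Cidec (0.88) and Lgals12 (0.87). For deviations they were Adipoq (0.88), Sh3tc1 (0.84), Kcnj8 (0.82), Cidec (0.80) and Igkv4-86 (0.79). Kcnj8 encodes a potassium channel subunit of mural cells of vessels, and Igkv4-86 is an immunoglobulin kappa variable gene.

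Lgals12 fell in Ex3aERKO, to -6.63, -5.66, -6.52 and -6.80, against -4.42, -4.45, -4.63 and -5.47 in control. All Ex3aERKO arrays were below all control arrays (-1.66 ± 0.30), and its interaction was 2.69 ± 0.42. Both were called, and neither was under the normexp background. Cidec read -3.45, -1.19, -1.85 and -4.00 in Ex3aERKO and 0.74, -0.24, -0.09 and -2.43 in control, with overlap, and was not called (-2.12 ± 0.85). Car3, a carbonic anhydrase abundant in fat and muscle, read -3.55, 1.82, -2.08 and -3.66 in Ex3aERKO and 1.08, 0.58, 0.20 and -0.05 in control. Ex3aERKO 2 alone was high there, and it is the array whose liver genes summed to 165. Whether the 2 go together was not tested. Car3 was not called (-2.32 ± 1.07, adjusted p = 0.229). Leaving out 1 array at a time put its difference between -3.55 and -1.72, the former without Ex3aERKO 2. Lgals12 and Cidec were chosen for their likeness to Adipoq over these levels, so their differences are a description, with no p.

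The start of a gene is 1 place where genes that move together can be compared. RefSeq promoter windows (GRCm38.p6) matched 6 of the 8 members by symbol, all but Fabp4 and Lpl, whose starts were therefore not searched. The 250 bases before the start were read for Adipoq and Slc7a10, the closest pair, and for Lep, which followed them in part. Capitals mark CCAAT or its reverse complement ATTGG in Adipoq, and TTGCGCAA, the palindrome bound by C/EBP factors, in Lep, and the Slc7a10 window has none. The windows are chr16:23146286-23146535, chr7:35186135-35186384 and chr6:29059971-29060220, all on the plus strand.
Adipoq: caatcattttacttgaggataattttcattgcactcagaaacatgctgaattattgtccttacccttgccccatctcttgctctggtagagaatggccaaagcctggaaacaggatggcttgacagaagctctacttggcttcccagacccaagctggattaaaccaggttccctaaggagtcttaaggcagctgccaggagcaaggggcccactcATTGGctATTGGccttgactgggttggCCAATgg
Slc7a10: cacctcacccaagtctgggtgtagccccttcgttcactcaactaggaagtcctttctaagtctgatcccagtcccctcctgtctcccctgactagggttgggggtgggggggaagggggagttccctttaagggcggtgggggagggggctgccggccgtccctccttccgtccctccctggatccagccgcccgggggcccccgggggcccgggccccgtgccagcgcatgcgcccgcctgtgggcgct
Lep: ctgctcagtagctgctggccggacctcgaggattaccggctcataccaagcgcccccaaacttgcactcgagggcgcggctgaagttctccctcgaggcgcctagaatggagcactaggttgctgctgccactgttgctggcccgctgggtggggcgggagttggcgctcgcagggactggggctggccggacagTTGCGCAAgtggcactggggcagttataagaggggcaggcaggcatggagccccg
Adipoq held CCAAT on either strand 3 times, first bases at -34, -27 and -7 from the start, and Slc7a10 held none. CCAAT was present in 33.8% of the 32851 windows of this length, and among the members also before Pparg. TTGCGCAA stood in 0.164% of windows and, among the members, in that of Lep alone, with its first base at -55. The PPAR and RXR direct repeat, AGGTCA and AGGTCA with any 1 base between (0.0335% of windows), and the estrogen response element, GGTCA and TGACC with any 3 bases between (0.0639%), each searched on both strands, were in no member's window. GC content was 48.8% for Adipoq and 69.6% for Slc7a10, with a median of 52.4% over all windows. These are matches of letters and not sites.

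The other gene lists were also chosen with earlier results of these data known. From each, up to 4 genes were picked by the smallest adjusted p against control, so their p-values are descriptive. A wider list of 38 other white adipocyte genes did not move in 1 direction. In Ex3aERKO 2 were called higher and 2 lower than control, in Ex3bERKO 0 and 0, and in Ex3abERKO 6 and 6, with medians of -0.04, -0.14 and 0.11. Over all features 3.84% were called higher and 4.20% lower in Ex3aERKO. Ex3bERKO had 0.390% higher and 0.648% lower, Ex3abERKO had 10.6% higher and 11.7% lower, and the count of each list below stands against these shares. Without the 3 arrays that stood apart the list had 1 higher and 1 lower in Ex3aERKO and 2 and 6 in Ex3abERKO, where the shares of all features were 1.14% and 1.14%, and 7.24% and 5.96%. The 2 lower calls in Ex3aERKO were Lgals12 and Angptl4, a secreted inhibitor of lipoprotein lipase (-0.82 ± 0.18, adjusted p = 0.0129). Gpd1, which makes glycerol phosphate, rose in Ex3aERKO (2.47 ± 0.45, adjusted p = 0.00421) and in Ex3abERKO (2.67 ± 0.45, adjusted p = 0.000962), with no overlap with control in either. In Ex3abERKO Cd36, a fatty acid transporter of adipocytes, macrophages and endothelium, rose to 4.08, 3.97, 4.44 and 4.22, against 2.24, 0.86, 0.49 and 0.77 in control (3.09 ± 0.43, adjusted p = 0.000273). Gpam, an enzyme of triglyceride synthesis, fell there (-2.16 ± 0.31, adjusted p = 0.000302), as did Angptl4 (-1.10 ± 0.18, adjusted p = 0.000889). Lipe, hormone-sensitive lipase, also fell (-1.03 ± 0.22, adjusted p = 0.00460), but not when its probes were averaged (-0.67, adjusted p = 0.074). Plin1, the perilipin of the adipocyte lipid droplet, was not called in Ex3abERKO (-1.21 ± 0.56, adjusted p = 0.145).

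Of 10 brown adipocyte genes, 1 was called higher in Ex3aERKO, none in Ex3bERKO and 6 in Ex3abERKO (10.6% of all features), and none lower. These counts without the 3 arrays were 0 in Ex3aERKO and 3 in Ex3abERKO. Cidea, a lipid droplet protein of brown fat, read 2.49, 2.16, 3.85 and 3.14 in Ex3abERKO and 0.49 or less on every Ex3aERKO array, against -3.57, -3.50, -3.51 and -3.42 in control. This was 85.1-fold higher in Ex3abERKO (6.41 ± 0.58, adjusted p = 1.66e-05) and 6.29-fold higher in Ex3aERKO (adjusted p = 0.0113). Cox8b (1.95 ± 0.32, adjusted p = 0.000826) and Ppargc1a, a coactivator of PPARγ (1.21 ± 0.28, adjusted p = 0.00755), also rose in Ex3abERKO. Elovl3 rose too (3.83 ± 0.85, adjusted p = 0.00541), but was well above background on only 1 of 4 control arrays. Cidea in Ex3aERKO and Cox8b, Ppargc1a and Elovl3 in Ex3abERKO were not called under the normexp background (1.76, 0.88, 0.68 and 0.38). Ucp1, the uncoupling protein that defines brown fat, was called in Ex3abERKO at 1.35 ± 0.42 (adjusted p = 0.0312). It was well above background on 1 of 4 control arrays, its call was lost without control 1, 3 or 4 or without Ex3abERKO 3 or 4 (1.01 to 1.36), and its direction turned under normexp (-0.41).

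Among 12 genes of adipocyte progenitors, 4 rose and 1 fell in Ex3aERKO, none was called in Ex3bERKO, and 6 rose in Ex3abERKO (10.6% of all features). With the 3 arrays left out, 1 rose and 1 fell in Ex3aERKO and 5 rose in Ex3abERKO. Cd55 rose in Ex3aERKO (1.87 ± 0.31, adjusted p = 0.00249) and in Ex3abERKO (2.04 ± 0.31, adjusted p = 0.000514). Pdgfra, a receptor of progenitors and other fibroblasts, rose in Ex3abERKO (1.64 ± 0.32, adjusted p = 0.00240), as did Icam1 (1.55 ± 0.23, adjusted p = 0.000389). Pdgfrb, a receptor of mural cells and progenitors, fell in Ex3aERKO (-1.14 ± 0.15, adjusted p = 0.000535) and had an interaction of 1.46 ± 0.21 (adjusted p = 0.00242).

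**Figure D5:**
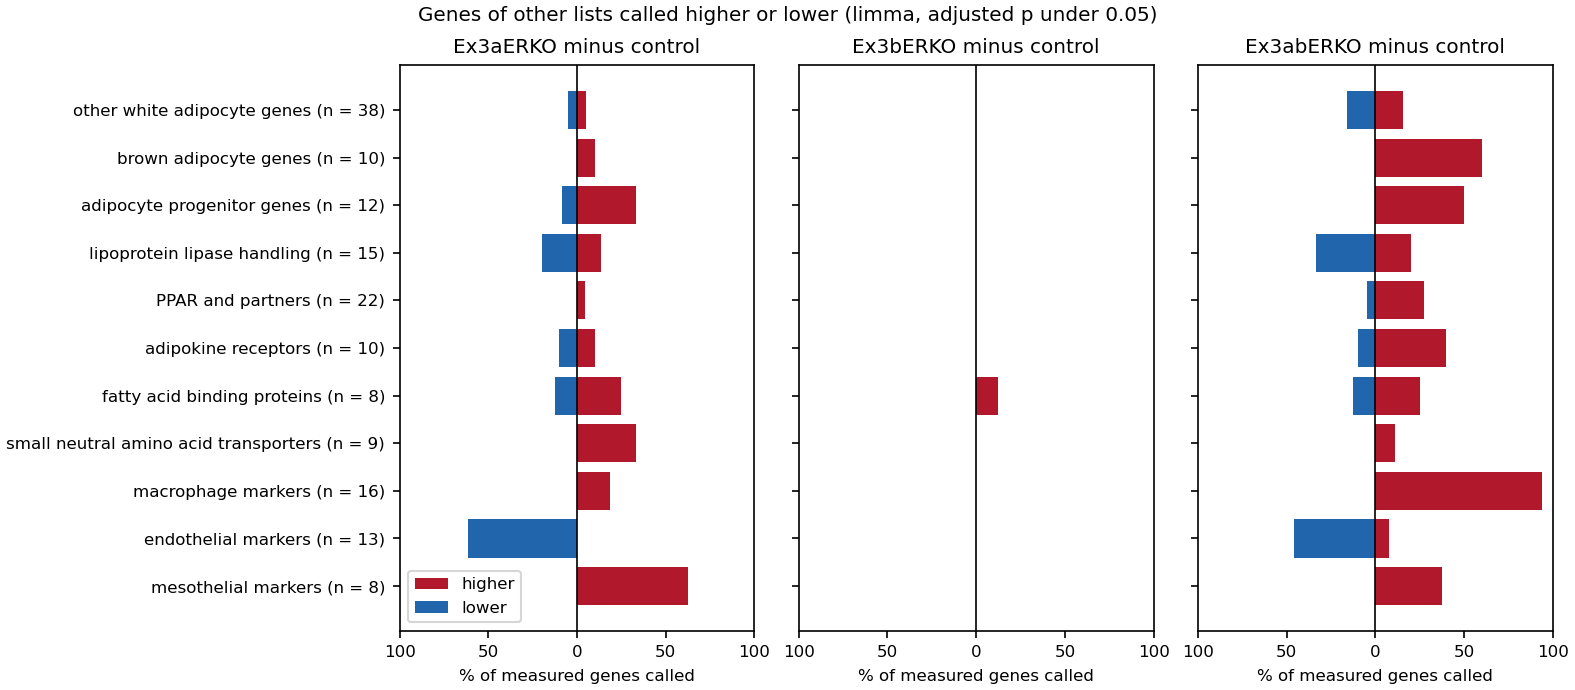
Share of the measured genes of 11 lists called higher (right) or lower (left) than control in each knockout group (limma, adjusted p under 0.05). In Ex3abERKO 15 of 16 macrophage markers and 6 of 10 brown adipocyte genes were higher (10.6% of all features). In Ex3aERKO 8 of 13 endothelial markers were lower (4.20% of all features). Without the 3 arrays that stood apart these counts were 12, 3 and 2.

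Partners of single members were also read. Of 15 genes that bring lipoprotein lipase to its place or meet it there, 2 rose and 3 fell in Ex3aERKO, and 3 rose and 5 fell in Ex3abERKO (10.6% and 11.7% of all features). Without the 3 arrays none was called in Ex3aERKO, and 2 rose and 4 fell in Ex3abERKO. Lipg, endothelial lipase, fell in Ex3abERKO (-2.24 ± 0.42, adjusted p = 0.00189), and Apoe rose there (1.00 ± 0.18, adjusted p = 0.00149). Gpihbp1, which anchors Lpl to capillaries, was not called in Ex3aERKO (-0.86 ± 0.28, adjusted p = 0.0765), but was with slide as a fixed block (adjusted p = 0.037). Of 22 PPAR genes and their partners, 1 rose in Ex3aERKO, and 6 rose and 1 fell in Ex3abERKO (3 and 1 without the 3 arrays). Cebpd, an early factor of adipocyte formation, rose in Ex3aERKO (1.91 ± 0.34, adjusted p = 0.00319) and in Ex3abERKO (1.92 ± 0.34, adjusted p = 0.00113). Ppara fell in Ex3abERKO (-1.98 ± 0.28, adjusted p = 0.000280). Rxra rose there by 0.68 ± 0.15 (adjusted p = 0.00426), but by 0.27 and uncalled when its probes were averaged.

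Of 10 receptors for the hormones and complement products of fat, 1 rose and 1 fell in Ex3aERKO, and 4 rose and 1 fell in Ex3abERKO, where 10.6% and 11.7% of all features did. None was called in Ex3aERKO and 3 rose in Ex3abERKO without the 3 arrays. Lepr, the leptin receptor, fell in Ex3aERKO (-1.16 ± 0.25, adjusted p = 0.0113). C3ar1, a complement receptor carried by myeloid cells, rose in Ex3abERKO (2.57 ± 0.43, adjusted p = 0.000872). Adipor1, an adiponectin receptor, was called in Ex3abERKO at 0.48 ± 0.12 (adjusted p = 0.0112), but stood at 0.02 when its probes were averaged. Of 8 other fatty acid binding proteins, 2 rose and 1 fell in Ex3aERKO, 1 rose in Ex3bERKO, and 2 rose and 1 fell in Ex3abERKO. When the 3 arrays were left out, 1 rose in Ex3aERKO, none in Ex3bERKO and 2 in Ex3abERKO, and none fell. Fabp5, of macrophages and epithelia, rose in Ex3abERKO to 0.25, 0.26, 1.30 and 0.34, against -2.38, -2.48, -3.70 and -2.39 in control (3.27 ± 0.46, adjusted p = 0.000273). Fabp7 rose there too (1.92 ± 0.42, adjusted p = 0.00496). Fabp3, the muscle form, rose in Ex3aERKO (2.41 ± 0.42, adjusted p = 0.00289), with an interaction of -3.40 ± 0.59 (adjusted p = 0.00639). The resistin relatives Retnla (2.47 ± 0.98 in Ex3aERKO, adjusted p = 0.151) and Retnlg (1.92 ± 0.83 in Ex3abERKO, adjusted p = 0.115) were not called. Of the alternatives run, array weights made Retnla pass (3.35, adjusted p = 0.018). Among 9 amino acid transporters and partners related to Slc7a10, 3 rose in Ex3aERKO (1 without the 3 arrays) and none fell. Slc7a5, a carrier of large neutral amino acids, rose there (1.49 ± 0.22, adjusted p = 0.00100), opposite in sign to Slc7a10, with an interaction of -2.63 ± 0.31 (adjusted p = 0.000808).

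Markers of other cells moved in the same comparisons as Fabp4, Lpl, Cd36 and Fabp5. Of 16 macrophage markers, 3 rose in Ex3aERKO, none in Ex3bERKO and 15 in Ex3abERKO, against 3.84%, 0.390% and 10.6% of all features. Without the 3 arrays 0 rose in Ex3aERKO and 12 in Ex3abERKO. Their summed level was 321 to 456 over the Ex3aERKO arrays, 236 to 409 over Ex3bERKO and 537 to 627 over Ex3abERKO, against 199 to 281 over control. Cd68 (2.70 ± 0.38, adjusted p = 0.000301) and Trem2 (2.72 ± 0.37, adjusted p = 0.000234) rose in Ex3abERKO. Endothelial markers ran the other way, with 8 of 13 lower in Ex3aERKO (4.20% of all features; 2 of 13 without the 3 arrays), among them Egfl7 (-1.26 ± 0.15, adjusted p = 0.000326) and Cdh5 (-1.07 ± 0.19, adjusted p = 0.00346). In Ex3abERKO 1 endothelial marker rose and 6 fell (1 and 2 without the 3 arrays), Egfl7 by -0.88 ± 0.15 (adjusted p = 0.00100). Summed endothelial signal was 26.5 to 32.5 over the Ex3aERKO arrays, 33.6 to 51.5 over Ex3bERKO and 33.3 to 42.9 over Ex3abERKO, against 41.8 to 60.2 over control.

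The surface layer of the ovary and the lining of the body cavity share mesothelial markers, and 5 of 8 of these rose in Ex3aERKO, 0 in Ex3bERKO and 3 in Ex3abERKO (3.84%, 0.390% and 10.6% of all features). Without the 3 arrays that stood apart none was called in any of these comparisons. Upk3b (1.80 ± 0.39, adjusted p = 0.0105) and Lrrn4 (1.96 ± 0.42, adjusted p = 0.0109) were among them, and neither was called without the 3 arrays that stood apart (adjusted p = 0.12 for each). Their summed level was 25.8 to 72.9 over the Ex3aERKO arrays, 13.6 to 64.5 over Ex3bERKO and 32.2 to 50.6 over Ex3abERKO, against 13.5 to 18.2 over control. Leaving out those 3 arrays, the calls of Gpd1, Angptl4, Cidea and Lepr in Ex3aERKO and of Ppargc1a in Ex3abERKO were lost too (adjusted p = 0.071, 0.11, 0.091, 0.12 and 0.066), as was that of the Fabp3 interaction (adjusted p = 0.055). Skeletal muscle markers summed to 2.24 to 3.71 over the Ex3aERKO arrays, 1.83 to 2.13 over Ex3bERKO and 2.57 to 2.92 over Ex3abERKO, against 2.10 to 2.41 over control. Of 10 luteal markers, 4 were lower in Ex3aERKO, 2 in Ex3bERKO and 7 in Ex3abERKO, and of 10 granulosa markers 1 rose and 1 fell in Ex3aERKO and 5 fell in Ex3abERKO. Without the 3 arrays 2 luteal markers were lower in Ex3aERKO, 1 in Ex3bERKO and 7 in Ex3abERKO, and 0 granulosa markers were called in Ex3aERKO and 5 fell in Ex3abERKO. Of 9 neural markers 2 rose in Ex3aERKO, 1 in Ex3bERKO and 2 in Ex3abERKO, of 8 oviduct markers 2 rose in Ex3abERKO, and of 10 liver markers 1 rose in Ex3aERKO and 1 in Ex3abERKO. None of 5 erythroid markers was called against control. Of 9 skeletal muscle markers 1 rose and 2 fell in Ex3aERKO, and 1 rose and 1 fell in Ex3abERKO. The part of these cells in the members' levels was not tested.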

How the data were processed

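Spot intensity was extracted with Agilent Feature Extraction 9.5.3.1, with spatial and multiplicative detrending on and its global background adjustment off, per the file headers. The deposited series table held the same intensity values (equal within 1e-04 for 41174 probes), so neither carried a normalization between arrays. Here the processed signals of an array were scaled to its 75th percentile over non-control spots, floored at -8.88 and expressed as log2. Outlier spots were left out and the spots of a probe averaged. A probe was kept if 4 or more of the 16 arrays had it well above background, and the brightest probe stood for a gene. R 4.3.3 and limma 3.58.1 (lmFit, eBayes) gave 1 mean per group, 12 residual degrees of freedom, 6 pairwise comparisons and the interaction. P-values were two-sided, and values after ± are standard errors unless marked SD, with n = 4 arrays a group. The model was also run on simulated data with independent arrays and no slide effect, so that run says nothing of slide effects here.

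The members and the 19 other gene lists were chosen with earlier results of these data known. The rule named all members, the 5 genes with the highest r with Adipoq and with Slc7a10 for levels and for deviations, up to 4 genes of each other list with the smallest adjusted p against control, and Plin1, Cidec, Car3, Lipe, Ucp1, Gpihbp1, Cd36, Adipor1, Adipor2, Lepr, Cebpa, Rxra, Fabp5 and Slc3a2; some of these are not described. Gene names came from accessions or symbols matched to RefSeq (GRCm38.p6), and probe coordinates are the array files' own (mm7), a build with no genome used here, so exons and introns are not given. Promoter sequences are RefSeq's. Same-numbered arrays deviated together at r from -0.30 to 0.44, so replicate numbers were not taken as pairs. Same-slide arrays did so at -0.02 to 0.44 (median 0.28), and slide as a block is an alternative. The number of arrays limits the precision. Alternatives were another background correction, 2 other scalings, other filters, averaged probes, slide or replicate number as a block, array weights, another variance prior, only the groups compared, the series table, and leaving out arrays.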

Additional observations from a re-analysis of the deposited data

Results flagged for a closer look

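Of 32 groups of 4 arrays among the members, 3 held an array whose gap to its nearest neighbour was beyond Dixon's 95% critical value as a share of the group's range, where chance alone gives about 1 group in 20. Retn read -3.92 on control 4 and -4.97 on Ex3aERKO 1, and Pparg read 3.37 on Ex3aERKO 4.

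The interaction contrast was past the threshold of the model for 3 members, with no p given because of how they were chosen: Adipoq at 6.39 ± 1.42, Cfd at 6.64 ± 1.52 and Slc7a10 at 6.10 ± 1.22. Among genes that are no members, it was 2.69 ± 0.42 for Lgals12 (chosen for its likeness to Adipoq, so with no p, and not called under normexp), 1.46 ± 0.21 for Pdgfrb (adjusted p = 0.00242, limma), -3.40 ± 0.59 for Fabp3 (adjusted p = 0.00639, and 0.055 without the 3 arrays that stood apart) and -2.63 ± 0.31 for Slc7a5 (adjusted p = 0.000808).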

How the results depend on the processing

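Counts of members called moved with the processing. Under the normexp background 2, Adipoq and Cfd, were called in Ex3aERKO against control (4 in the report), in Ex3abERKO against Ex3aERKO (4) and in the interaction (3). In Ex3abERKO against control 1 was called with only the groups compared and 1 without control 4, Ex3aERKO 2 and Ex3abERKO 2 (2). In the interaction 1 was called with slide as a fixed block and 1 without those 3 arrays (3). Leaving out 1 array at a time gave 2 to 4 in Ex3aERKO against control, 1 to 3 in Ex3abERKO against Ex3bERKO, 0 to 2 in Ex3aERKO against Ex3bERKO and 1 to 4 in the interaction. In each of the 7 comparisons and under each alternative run for it, the median difference of the members moved by less than the SD between arrays of the members' median level. Even so, leaving out 1 array put it between -2.24 and -1.38 in Ex3aERKO against control, -1.07 and -0.24 in Ex3bERKO and 0.14 and 1.23 in Ex3abERKO. Over the 28 pairs the median r ranged from 0.18 to 0.42 without 1 array. Normexp shifted the median of all features to -0.34 in Ex3aERKO and -0.36 in Ex3abERKO against control, and turned Ucp1 in Ex3abERKO to -0.41. Replicate numbers did not pair the arrays, and with a replicate block 4 members were called in Ex3aERKO against control, 2 in Ex3abERKO against control and 2 in the interaction. The covariation without the 3 arrays and with slide fitted were chosen after seeing the data. The cause of these shifts was not tested. Over all features, counts of calls ran from 557 (without the 3 arrays) to 5474 (array weights) in Ex3aERKO against control (1961 in the report), 63 to 838 in Ex3bERKO (253), 3118 to 8825 in Ex3abERKO (5441), 609 to 2769 in Ex3abERKO against Ex3aERKO (1884), 1927 to 6334 in Ex3abERKO against Ex3bERKO (4054), 120 to 1626 in Ex3aERKO against Ex3bERKO (572) and 251 to 1865 in the interaction (870). Only the groups compared gave no interaction. Spots not well above background limit Slc7a10 in Ex3aERKO, and Ucp1 and Elovl3 in control.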
